A study of Mus musculus with 2744 samples.

Results

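Voltage-gated sodium and calcium channel genes and the potassium channel genes were followed in single cells sampled while mouse embryonic stem cells differentiated into motor neurons in culture. Genes were chosen by symbol: the Scn genes of sodium channels, the Cacna, Cacnb and Cacng genes of calcium channels, the Kcn genes of potassium channels and the Hcn genes of pacemaker channels. Of 23968 genes in the tables, 66 matched and had reads in 20 or more of the 2448 cells used, and these are described here. The other 69 genes that matched had reads in under 20 cells, 10 of them in 0 cells. Just inside this limit were Kcnk7 with 21 cells and Kcnk2 and Kcns3 with 20 cells each, and just outside it were Kcnc4 and Kcnh1 with 19 cells each. Scn2a stands in the tables under its older symbol Scn2a1, which the rule does not match.

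Cells were sampled at 7 time and sort groups, as single cells in wells of sorted plates, and their polyadenylated RNA was counted by CEL-seq, a method that barcodes the RNA of each cell and amplifies it by transcription. The groups were Day 6 eGFP++ cells, Day 6 eGFP+ cells, and cells of Days 2, 3, 4, 5 and 6 of the differentiation with no eGFP label. The labels do not name the reporter behind eGFP, the stem cell line or its strain, and they put no genotype or treatment that would separate the groups on any cell. Cells came from dissociated embryoid bodies, the cell aggregates in which the differentiation was run, and 2 experiments, a main and a pilot one, stand for the replicates, with the eGFP+ group on 1 plate of the main experiment.

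Where 2 values are given for a group, the main experiment's comes before the pilot one's. The 13 sums of reads over the cells of a group and experiment held 16370502 to 100972780 reads of genes. The summed level of 5 neuron markers (Stmn2, Tubb3, Map2, Elavl3 and Snap25), in counts scaled to 1000000 reads of genes (CPM), was 3477 and 3077 CPM in main and pilot eGFP++ cells, 1463 and 1294 CPM on Day 6 and 183.7 and 97.3 CPM on Day 2. The 5 motor neuron markers (Isl1, Mnx1, Slc18a3, Chat and Lhx3) summed to 1044 and 1292 CPM in eGFP++ cells, 394.97 and 251.2 CPM on Day 6 and 1.61 and 17.4 CPM on Day 2. Neural progenitor markers (Sox1, Pax6, Nes and Hes5) summed to 89.5 and 115.6 CPM in eGFP++ cells against 598 and 528.8 CPM on Day 6, and pluripotency markers (Pou5f1, Zfp42, Dppa5a, Tdgf1 and Nanog) to 11.9 and 28.7 CPM on Day 6 against 4325 and 2921 CPM on Day 2. In sums of this kind, fewer cells of a type and less RNA per cell cannot be told apart, and the part of cell composition in the results below was not tested.

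Voltage-gated channels open in response to a change of membrane potential. Sodium channels carry the fast upstroke of the action potential, calcium channels couple electrical activity to calcium entry, and potassium channels bring the membrane back to rest or, as two-pore channels, set the resting potential. Pore-forming subunits work with auxiliary subunits: beta and alpha2delta subunits bring calcium channels to the cell surface, and beta subunits, KChIP proteins and silent Kv subunits modify sodium and Kv channels. Motor neurons fire repetitively through such channels.

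The sequences upstream of the start sites are shown for 2 channel genes with more positive cells on Day 6 than on Day 2, Kcnh2 and Cacna2d1, and for 2 with fewer, Kcnk5 and Kcnk1. They were chosen after their values were seen. Each is the 250 bases before the gene's start in the RefSeq table for GRCm38.p6, written 5′ to 3′ on the strand of the gene. Capitals mark the GC box GGGCGG in either orientation (CCGCCC on the other strand), and no E box CAGCTG occurs in any of the 4.
Kcnh2: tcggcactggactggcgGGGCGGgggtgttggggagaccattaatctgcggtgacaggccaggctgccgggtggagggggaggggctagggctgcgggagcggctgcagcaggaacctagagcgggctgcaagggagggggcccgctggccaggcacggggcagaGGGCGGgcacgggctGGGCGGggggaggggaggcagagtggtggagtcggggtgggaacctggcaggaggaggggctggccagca
Cacna2d1: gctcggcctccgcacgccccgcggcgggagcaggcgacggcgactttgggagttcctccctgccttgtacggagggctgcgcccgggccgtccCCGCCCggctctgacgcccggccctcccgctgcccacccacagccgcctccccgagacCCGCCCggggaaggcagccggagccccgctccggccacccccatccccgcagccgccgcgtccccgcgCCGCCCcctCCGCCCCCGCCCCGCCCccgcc
Kcnk5: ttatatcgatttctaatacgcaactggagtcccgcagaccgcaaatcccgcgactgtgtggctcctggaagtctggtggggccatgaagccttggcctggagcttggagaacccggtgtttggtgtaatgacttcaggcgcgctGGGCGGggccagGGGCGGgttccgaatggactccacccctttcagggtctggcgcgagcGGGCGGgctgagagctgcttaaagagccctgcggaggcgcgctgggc
Kcnk1: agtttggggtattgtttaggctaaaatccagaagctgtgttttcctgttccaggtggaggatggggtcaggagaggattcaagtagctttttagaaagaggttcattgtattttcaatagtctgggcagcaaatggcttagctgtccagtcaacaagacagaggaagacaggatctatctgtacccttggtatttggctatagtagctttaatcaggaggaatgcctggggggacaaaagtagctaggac
They lie at chr5:24329592-24329841 on the minus strand (Kcnh2), chr5:15934441-15934690 on the plus strand (Cacna2d1), chr14:20181783-20182032 on the minus strand (Kcnk5) and chr8:125994852-125995101 on the plus strand (Kcnk1). For Kcnh2 and Kcnk5 the start used lies inside the gene's span in GENCODE. The GC share of these windows was 73.6% for Kcnh2, 82.4% for Cacna2d1, 62.8% for Kcnk5 and 44.4% for Kcnk1, beside a median of 52.4% over all 32851 windows of the table. The GC box occurred 3 times upstream of Kcnh2, 6 times upstream of Cacna2d1, 3 times upstream of Kcnk5 and 0 times upstream of Kcnk1. The windows of Kcnd3 and Kcnn1, whose levels were higher on Day 6 than on Day 2, were also searched and are not shown. They held 0 GC boxes each, with 1 E box upstream of Kcnd3 and 3 upstream of Kcnn1. The GC box was found in 32.7% of all 32851 windows and in 32 of the 44 channel genes that the table holds, and the E box in 13% of all windows and in 13 of these 44. Channel genes were counted by gene, with a match in any window of the gene, so these counts and the shares of windows are not in the same unit. A match is a description and not a binding site.

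At equal depth, a larger share of Day 6 than of Day 2 cells had a read of a channel gene, by less in the main than in the pilot experiment, and eGFP++ cells had the largest share of cells with at least 1 of them. With each cell thinned to 10000 reads, 86.5% of main and 89.7% of pilot eGFP++ cells had a read of at least 1 of the 66 genes, against 64.4% and 60.6% of Day 6 cells. On Days 2, 3, 4 and 5 the shares were 59.7%, 59.7%, 57.5% and 63.5% of main cells and 33.8%, 50.7%, 29.8% and 53.3% of pilot cells. The 95% Wilson intervals, which cover counting error only, were 82.05 to 90.02% in main eGFP++ cells and 59.3 to 69.2% in main Day 6 cells, and in the pilot experiment 76.4 to 95.9% and 48.9 to 71.1%, so that eGFP++ and Day 6 cells did not overlap in either experiment. The interval of main Day 6 cells overlapped that of main Day 2 cells, 54.5 to 64.7%. In eGFP+ cells the share was 40.96%, the lowest of the main experiment. Unthinned, the median number of channel genes per cell was 4 in both sets of eGFP++ cells, 2 in main and 5 in pilot Day 6 cells, and 3 and 1 on Day 2. Among main cells the unthinned median was thus lower on Day 6 than on Day 2, and the thinned medians were both 1, with thinned means of 1.42 on Day 6 and 0.935 on Day 2. Thinned pilot Day 2 cells held fewer genes of any kind than pilot Day 6 cells, with medians of 999 and 1689. The part of this in the larger pilot difference in shares was not tested.

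The summed level of the 66 genes was 640 CPM in main and 1373 CPM in pilot eGFP++ cells, 439.9 and 363.01 CPM on Day 6, and 212.3 and 170.2 CPM on Day 2. Channel genes were sparse transcripts: the mean number of them per thinned cell was 2.26 ± 1.75 (SD over cells) in main eGFP++ cells, 1.42 ± 1.53 in main Day 6 cells and 0.935 ± 0.994 in main Day 2 cells. In pilot cells the means were 1.64 ± 1.18 for eGFP++, 1.76 ± 2.14 for Day 6 and 0.351 ± 0.508 for Day 2, so that the pilot eGFP++ mean was below the pilot Day 6 mean. The median number of genes of any kind in such a cell was 1630.5, 1478.5 and 2168, and in the pilot experiment 933, 1689 and 999. Channel genes were thus fewer in the Day 2 than in the Day 6 cells of the main experiment although more genes in all were found there. Pilot Day 2 cells held fewer channel genes and also fewer genes of any kind than pilot Day 6 cells. A single well could dominate a sum, and 98.3% of the Cacnb1 reads of pilot eGFP++ cells came from 1 cell.

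**Figure D1:**
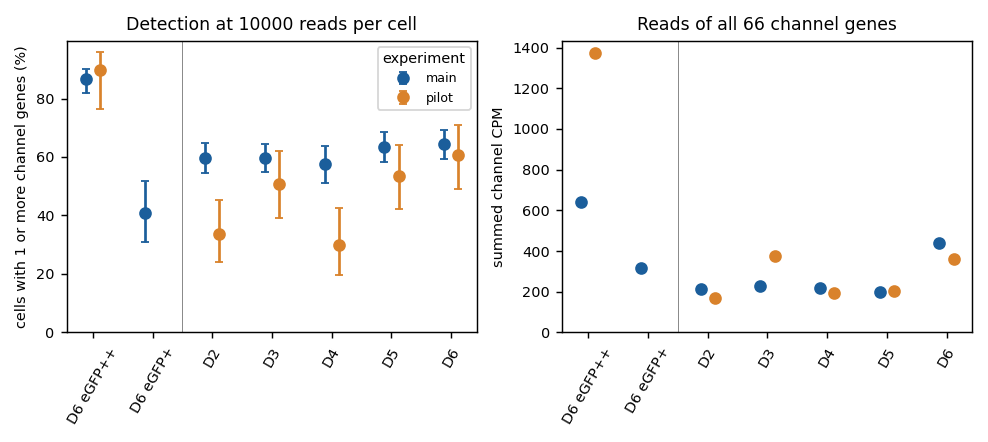
Channel genes per group in the main (blue) and pilot (orange) experiment, with the eGFP groups left of Days 2 to 6. The left panel gives the percentage of cells with a read of at least 1 of the 66 genes after thinning to 10000 reads, with 95% Wilson intervals, and the right panel the summed CPM of the 66 genes. Both are highest in the eGFP++ cells of each experiment.

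**Figure D2:**
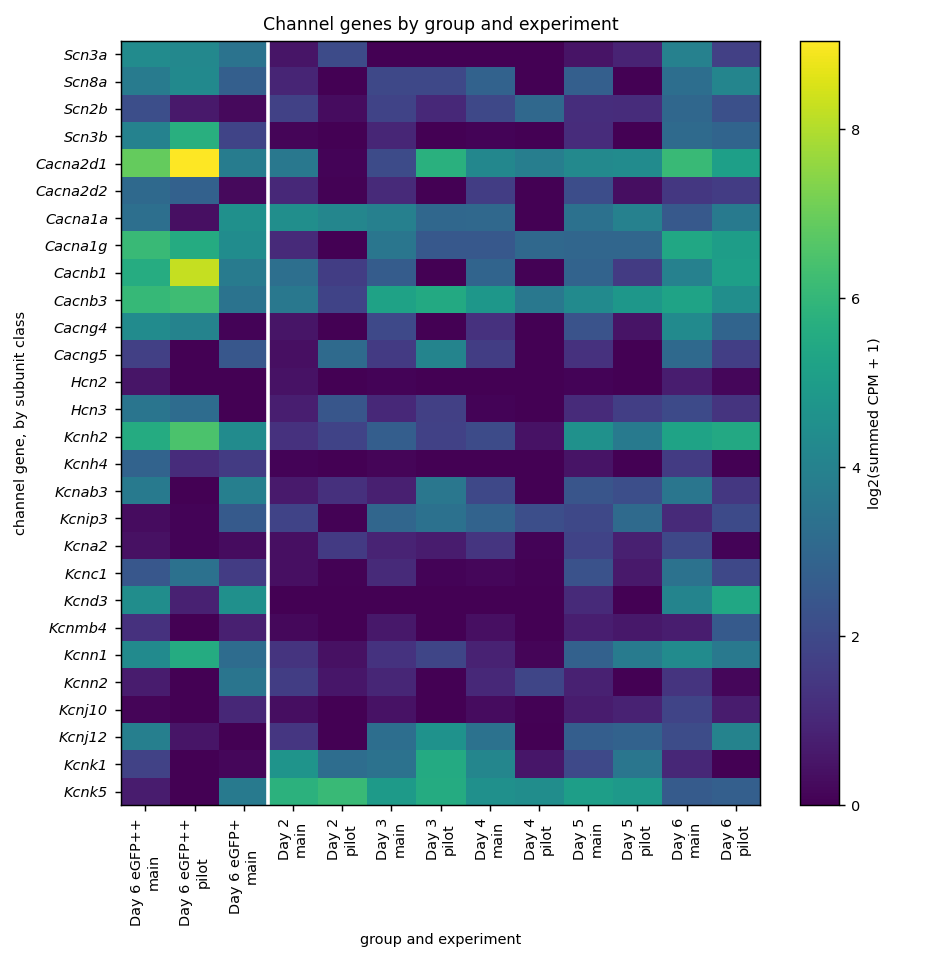
Summed level of the named channel genes, as log2(CPM + 1) on the colour scale, in the 13 sums of reads (columns), ordered by subunit class (rows). Kcnh2, Cacna1g and Cacna2d1 are brighter on Day 6 and in eGFP++ cells than on Day 2, and Kcnk1 and Kcnk5, in the last 2 rows, are darker.

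Day 6 cells were set against Day 2 cells, the earliest sample, to ask which channel genes differ between the end and the start of the differentiation. In the edgeR quasi-likelihood test on summed reads, with Benjamini-Hochberg adjustment over 16080 genes, 0 of the 66 channel genes passed an adjusted p of 0.05. Of all genes tested, 0.833% passed. At an unadjusted p under 0.05 there were 10 channel genes higher and 2 lower, and 13.7% of all genes reached it. The spread between the main and pilot sums was wide, with a common dispersion of 1.12. A second edgeR fit used the number of cells with a read in place of the number of reads, so that a well with very many reads counts once. These numbers were taken at full depth and scaled to their total over all genes. A rise or fall by cells is thus relative to all genes found and is not a change in the share of cells. The median number of genes per cell was 4439 and 1810 on Day 2 and 2310.5 and 3361 on Day 6. This second fit covered 28 of the 66 genes and 11509 genes in all. In it 13 channel genes rose (46.4% of 28) and 2 fell (7.14%), where 14.9% of all genes rose and 15.8% fell. DESeq2 on summed reads called 12 channel genes higher and 3 lower of 63 with an adjusted p, where 15.5% of all genes passed in either direction, and 8 of the higher and 2 of the lower genes were called in both ways.

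The 13 that rose in the count of cells were calcium channel genes (Cacna1g, Cacna1h, Cacna2d1, Cacna2d2, Cacnb3 and Cacng4), sodium channel genes (Scn3a, Scn8a and Scn3b) and potassium channel genes (Kcnh2, Kcnd3, Kcnc1 and Kcnj10). Kcnk1 and Kcnk5, both two-pore potassium channels, fell. Kcnd3 had no read on Day 2 and entered the fit only through later groups, so its call is given as a description. The median log2 change of the 66 genes in summed reads was 2.46, beside 0.17 for all genes, and 34 of 66 were higher on Day 6 in both experiments and 7 lower in both, where 35.7% of all genes were higher and 24.6% lower in both. The values of Day 6 and Day 2 did not overlap for 26 higher and 5 lower channel genes, and for 28.8% of all genes on the higher and 19.3% on the lower side. These calls depend on the measure and the tool: over the 22 alternatives to the fit on summed reads, the adjusted p ran from 4.17e-13 to 0.865 for Kcnh2, 1.48e-07 to 0.558 for Cacna1g, 3.08e-07 to 0.879 for Cacna2d1, 2.08e-04 to 0.865 for Kcnd3, 5.65e-05 to 0.865 for Kcnk5 and 2.19e-08 to 0.879 for Kcnk1, and for each of the 15 genes called by cells at least 1 alternative missed 0.05.

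**Figure D3:**
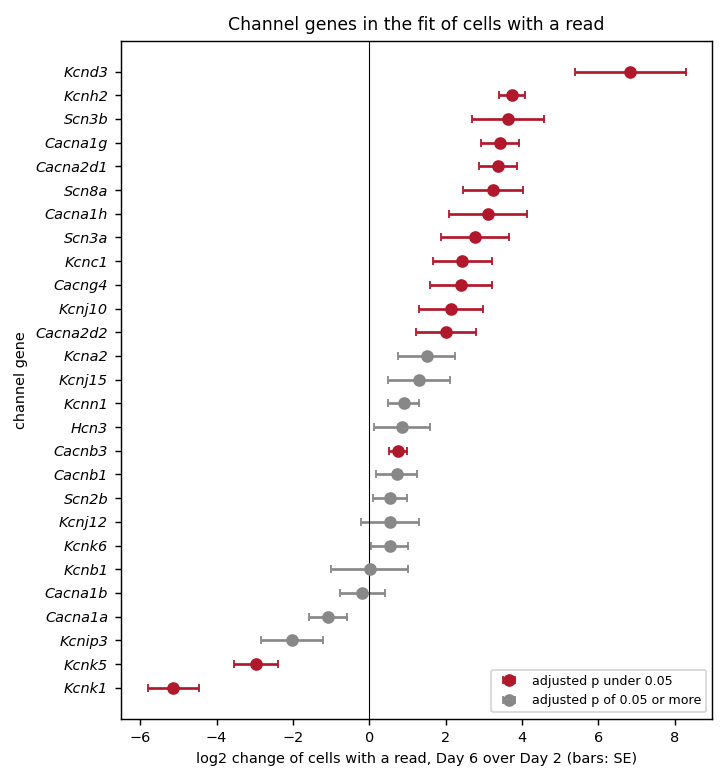
Log2 change of cells with a read, Day 6 over Day 2, for channel genes covered by that edgeR fit (points, with SE bars). Numbers of cells were scaled to their total over all genes. Red points mark an adjusted p under 0.05: 13 genes lie to the right of 0 and Kcnk1 and Kcnk5 to the left.

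Kcnh2 encodes the pore of the hERG channel, a delayed rectifier that deactivates slowly and carries a current known from heart and neurons. It lies at chr5:24319589-24351604 on the minus strand (GRCm38, GENCODE M21) and had reads in 647 cells. It had 46.7 and 88.3 CPM in main and pilot eGFP++ cells and 19.6 CPM in eGFP+ cells. From the start it had 1.45 and 2.51 CPM on Day 2, 5.58 and 2.38 CPM on Day 3, 3.21 and 0.365 CPM on Day 4, 22.9 and 11.8 CPM on Day 5 and 37 and 42.9 CPM on Day 6. Both Day 5 sums were above both sums of each earlier day, and both Day 6 sums above those of Day 5. Reads were found in 19.8% and 23.9% of thinned Day 6 cells (95% Wilson intervals 16 to 24.2% and 15.5 to 35%), against 0.563% and 1.35% of Day 2 cells (0.155 to 2.03% and 0.239 to 7.27%). Levels on Day 6 were 25.5-fold (main) and 17.1-fold (pilot) those of Day 2. The 4 main plates of Day 6 ranged over 16.1 to 21.6% of thinned cells, and those of Day 2 over 0 to 2.17%. By cells with a read its log2 change was 3.74 ± 0.34 (SE; adjusted p = 4.17e-13), and by summed reads 4.20 ± 1.21 (SE; adjusted p = 0.161), both from edgeR. Kcnh4, a brain member of the same family, was at 1.97 and 0 CPM on Day 6 against 0.0538 and 0 CPM on Day 2.

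Among calcium channel pores, Cacna1g, the T-type channel Cav3.1 that opens near the resting potential, rose in the count of cells. It lies at chr11:94408391-94474198 on the minus strand. Its level was 69.4 and 46.1 CPM in eGFP++ cells and 19.9 CPM in eGFP+ cells. Over the days it had 1.1 and 0 CPM on Day 2, 10.8 and 4.66 CPM on Day 3, 4.57 and 7.28 CPM on Day 4, 6.96 and 6.97 CPM on Day 5 and 40.7 and 31.5 CPM on Day 6. The lowest Day 6 value was thus above every value of Days 2 to 5, and the main Day 2 sum was the lowest of the main experiment. In thinned cells it was found in 9.6% and 15.5% on Day 6 against 0.845% and 0% on Day 2. Its log2 change was 3.42 ± 0.49 (SE; adjusted p = 1.48e-07) by cells with a read and 6.41 ± 1.76 (SE; adjusted p = 0.143) by summed reads in edgeR, and without the main Day 2 sum the second passed with an adjusted p of 0.0256. Day 2 was then 1 sum with no Cacna1g read, assumed to vary like the other groups. Cacna1a, the P/Q-type channel of presynaptic terminals, had 4.8 and 12 CPM on Day 6 against 21 and 16.9 CPM on Day 2, and its log2 change of -1.08 ± 0.49 (SE; adjusted p = 0.0921) by cells did not pass in edgeR. In pilot Day 2 cells 73.5% of the Cacna1a reads came from 1 cell.

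Calcium channel alpha2delta subunits carry the channel to the membrane and to terminals. Cacna2d1, at chr5:15934691-16374511 on the plus strand, had 120.2 and 527.5 CPM in eGFP++ cells, and 12.8 CPM in eGFP+ cells. Over the days it had 11.3 and 0.0761 CPM on Day 2, 3.19 and 52.5 CPM on Day 3, 17.1 and 13.6 CPM on Day 4, 17.9 and 19.5 CPM on Day 5 and 69.8 and 33.4 CPM on Day 6. Single wells weighed on some of these sums: 87.8% of the main Day 2 reads and 55.97% of the main Day 6 reads came from 1 cell each. The share of thinned cells did not rest on such wells and was 11.9% and 12.7% on Day 6 against 0.845% and 0% on Day 2. In edgeR its log2 change by cells was 3.38 ± 0.50 (SE; adjusted p = 3.08e-07) and by summed reads 3.09 ± 1.64 (SE; adjusted p = 0.427). Cacna2d2, another alpha2delta subunit, rose in the count of cells by 2.00 ± 0.78 (SE; adjusted p = 0.044) in edgeR, at levels under 3 CPM on both days.

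Beta subunits bind inside the channel and set its gating. Cacnb3, which had reads in 837 cells, the most of all channel genes, had 66 and 75.1 CPM in eGFP++ cells and 11.4 and 2.57 CPM on Day 2, 36.1 and 44.1 CPM on Day 3, 26.5 and 11.4 CPM on Day 4, 18.9 and 26.9 CPM on Day 5 and 36.6 and 21.3 CPM on Day 6. It was already found in 20.1% and 11.6% of thinned cells on Day 3, against 7.04% and 0% on Day 2, and in 13.3% and 18.3% on Day 6. Its log2 change of Day 6 over Day 2 was smaller than those above, 0.74 ± 0.23 (SE; adjusted p = 0.0102) by cells in edgeR. Cacnb1, known as the beta subunit of skeletal muscle and also found in brain, had 14.7 and 33.8 CPM on Day 6 against 8.91 and 2.09 CPM on Day 2, with a change by cells of 0.71 ± 0.55 (SE; adjusted p = 0.355) that did not pass in edgeR. Heart and skeletal muscle markers (Actc1, Myl7, Tnnt2, Myog and Ttn) summed to 53.2 and 25 CPM on Day 6 against 17.8 and 6.15 CPM on Day 2, and their part in the Cacnb1 values was not tested. Of the gamma subunits, which include partners of AMPA receptors, Cacng4 had 18.9 and 6.52 CPM on Day 6 against 0.417 and 0 CPM on Day 2 and rose by cells by 2.41 ± 0.81 (SE; adjusted p = 0.0178) in edgeR. Cacng5 had 7.43 and 2.23 CPM against 0.296 and 7.71 CPM, with all reads of the pilot Day 2 cells from 1 cell.

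Sodium channel genes were low at the start. Scn8a, the Nav1.6 channel of the axon initial segment and nodes, had 8.55 and 16.3 CPM on Day 6 against 0.902 and 0 CPM on Day 2, and rose by 3.25 ± 0.78 (SE; adjusted p = 9.55e-04) in the count of cells in edgeR. Scn3a, a Nav1.3 channel of embryonic neurons, had 14.7 and 2.26 CPM against 0.431 and 3.14 CPM, so that its summed reads overlapped between the days, and its change by cells was 2.77 ± 0.89 (SE; adjusted p = 0.0137) in edgeR. Among the beta subunits Scn3b had 7.8 and 6.57 CPM against 0.0942 and 0 CPM, with a change by cells of 3.63 ± 0.93 (SE; adjusted p = 0.00186) in edgeR. Scn2b had 7.12 and 3.6 CPM against 2.37 and 0.228 CPM, and its change by cells of 0.54 ± 0.43 (SE; adjusted p = 0.383) did not pass in edgeR. The 3 sodium pore genes together had 24.2 and 20.5 CPM on Day 6 against 1.57 and 3.14 CPM on Day 2. Scn2a1, which the rule left out, had 3.05 and 3.74 CPM on Day 6 against 0.0404 and 0 CPM on Day 2.

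Of the Kv pores, Kcnd3 is described although the rule for naming genes did not reach it, and it was chosen after its values were seen. It encodes Kv4.3, an A-type channel that inactivates fast and delays firing, and lies at chr3:105452330-105674002 on the plus strand. It had no read in any cell of Days 2, 3 and 4 in either experiment. On Day 5 it had 1.1 and 0 CPM, and on Day 6 15.8 and 41.4 CPM, which is at least 724-fold higher than on Day 2 in the pilot experiment with 3 reads per sum as the floor. In eGFP++ cells it had 20.7 and 0.794 CPM and in eGFP+ cells 22.1 CPM. It was found in 3.11% and 8.45% of thinned Day 6 cells and, with all reads, in 0 of 75 pilot Day 2 cells, which allows up to 4% of cells with a read (3 counts of the total), whatever the share of cells that express it. It entered the tests only through its reads on Days 5 and 6 and in the eGFP cells. Its calls for Day 6 against Day 2, for Day 6 against Day 4 and in the trend are thus given as a description, although the counts of called genes include it. Kcnc1, the Kv3.1 channel of fast-firing neurons, had 9.59 and 2.86 CPM on Day 6 against 0.296 and 0.0381 CPM on Day 2 and rose by cells by 2.43 ± 0.78 (SE; adjusted p = 0.0124) in edgeR, while Kcna2, the axonal Kv1.2, had 2.89 and 0.0623 CPM against 0.296 and 1.9 CPM and did not pass.

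The small-conductance channel Kcnn1 (SK1), which calcium opens after a spike, had 19.3 and 46.3 CPM in eGFP++ cells and 1.56 and 0.324 CPM on Day 2, 1.52 and 2.7 CPM on Day 3, 0.838 and 0.083 CPM on Day 4, 6 and 12.6 CPM on Day 5 and 19.7 and 11.7 CPM on Day 6. Its levels were higher on Days 5 and 6 than on Days 2 to 4 in both experiments, and Day 6 was 12.6-fold and 36.1-fold above Day 2, yet its log2 change was 4.07 ± 1.65 (SE; adjusted p = 0.321) by summed reads and 0.90 ± 0.40 (SE; adjusted p = 0.0816) by cells in edgeR. Kcnn2 (SK2) had 1.55 and 0.125 CPM on Day 6 against 2.14 and 0.457 CPM on Day 2, and Kcnmb4, the neuronal beta subunit of BK channels, 0.662 and 4.89 CPM against 0.148 and 0 CPM.

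The 8 inward rectifiers summed to 19.1 and 11.9 CPM in eGFP++ cells, 9.7 and 23.5 CPM on Day 6 and 4.6 and 3.73 CPM on Day 2, and the pacemaker channels to 10.9 and 8.25 CPM in eGFP++ cells, 3.8 and 1.67 CPM on Day 6 and 1.08 and 4.32 CPM on Day 2. Kcnj10, a Kir4.1 channel known from glia, had 2.61 and 0.623 CPM on Day 6 against 0.269 and 0 CPM on Day 2 and rose by cells by 2.14 ± 0.85 (SE; adjusted p = 0.0483) in edgeR. Kcnj12 (Kir2.2) had 3.27 and 15.4 CPM against 1.68 and 0.019 CPM. Hcn3 had 3.13 and 1.56 CPM against 0.713 and 4.32 CPM, and Hcn2 0.662 and 0.109 CPM against 0.363 and 0 CPM. The 8 silent or auxiliary Kv genes did not move one way: 4 had a positive and 4 a negative log2 change in summed reads. Of these, Kcnip3 (KChIP3, also known as the calcium-regulated repressor DREAM) had 1.1 and 3.1 CPM against 2.56 and 0.0381 CPM, and Kcnab3, a beta subunit of Kv1 channels, 10.8 and 1.79 CPM against 0.565 and 1.41 CPM.

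Of the two-pore potassium channels, Kcnk5 and Kcnk1 fell by cells on Day 6 against Day 2, while the 7 genes of the class did not move one way: 4 had a positive and 3 a negative log2 change in summed reads, with a median of 0.11. They summed to 8.74 and 0.489 CPM in eGFP++ cells and 18.3 and 9.76 CPM on Day 6, against 100.6 and 77.8 CPM on Day 2, and the Day 2 sums are mostly Kcnk5, Kcnk1 and, among main cells, Kcnk7, with 16.8 CPM of which 90.6% came from 1 cell. Kcnk3, named after its values were seen, went the other way, with 5.87 and 2.82 CPM on Day 6 against 0.0135 and 0 CPM on Day 2, and DESeq2 called it higher (log2 change 9.77, adjusted p = 0.00166), with 93.5% of the main Day 6 reads from 1 cell. Kcnk5 (TASK-2, a channel opened by alkaline pH), at chr14:20140057-20181809 on the minus strand, had 0.602 and 0 CPM in eGFP++ cells and 11.9 CPM in eGFP+ cells. Over the days it had 55.2 and 69.2 CPM on Day 2, 29.6 and 45.9 CPM on Day 3, 22 and 20.7 CPM on Day 4, 32.3 and 27.9 CPM on Day 5 and 5.07 and 5.7 CPM on Day 6. Day 2 was highest and Day 6 lowest in each experiment, with a level on Day 2 that was 10.9-fold and 12.1-fold that of Day 6. In thinned cells it was found in 1.41% and 2.82% on Day 6 against 19.7% and 5.41% on Day 2. By plate, Kcnk5 was found in 12.8 to 28.4% of main cells on Day 2 and in 0 to 3.41% on Day 6. Its pilot plates overlapped, with 0 to 10.8% on Day 2 and 0 to 5.13% on Day 6. Its log2 change was -2.97 ± 0.58 (SE; adjusted p = 5.65e-05) by cells and -3.62 ± 1.17 (SE; adjusted p = 0.209) by summed reads in edgeR. The second passed without the main eGFP++ sum (adjusted p = 0.0327) and without the pilot eGFP++ sum (adjusted p = 0.0267), and also when only Days 2 and 6 were fitted. Kcnk1 (TWIK-1, a weakly rectifying leak channel), at chr8:125995170-126030685 on the plus strand, had 2.49 and 0 CPM in eGFP++ cells and 24.7 and 8.51 CPM on Day 2, 9.63 and 45.4 CPM on Day 3, 16.8 and 0.465 CPM on Day 4, 2.99 and 10.7 CPM on Day 5 and 1.01 and 0 CPM on Day 6. The pilot Day 3 value stood above the pilot Day 2 value, and by Day 6 at most 1.01 CPM was left in either experiment. Its log2 change of Day 6 over Day 2 was -5.13 ± 0.67 (SE; adjusted p = 2.19e-08) by cells in edgeR, and Day 2 was 24.5-fold above Day 6 among main sums. Main plates of Day 2 differed widely, with 2.33 to 22.8% of thinned cells, and those of Day 6 lay between 0 and 1.14%.

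**Figure D4:**
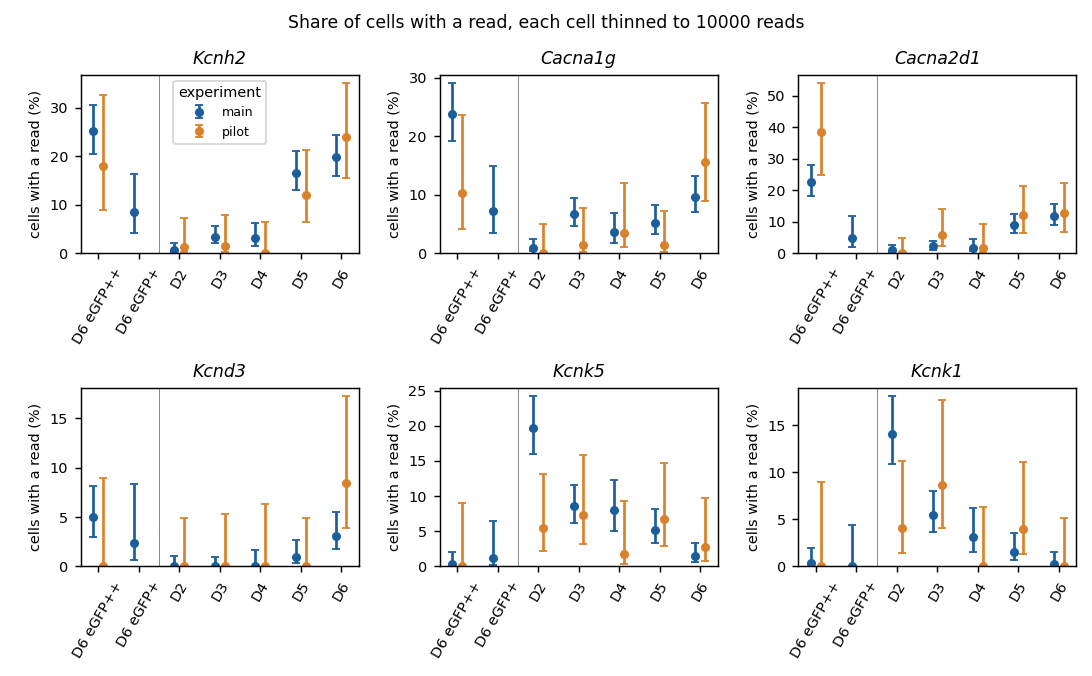
Percentage of cells with a read of 6 channel genes after thinning to 10000 reads, by group, in the main (blue) and pilot (orange) experiment, with 95% Wilson intervals that cover counting error only. Kcnh2 is at 19.8% and 23.9% on Day 6 against 0.563% and 1.35% on Day 2, and Kcnk5 at 1.41% and 2.82% against 19.7% and 5.41%.

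Day 4, the middle of the series, was set against Day 2 to look at the earlier days. In edgeR on summed reads 0 of 66 channel genes passed, where 0.0746% of all genes did, with 5 higher and 4 lower at an unadjusted p under 0.05. By cells with a read, 0 of 28 rose and 2 fell, Cacna1b and Kcnk1, where 4.31% of all genes rose and 3.88% fell. DESeq2 called 4 higher and 3 lower (4.72% of all genes in either direction), and none of these was among the genes called by cells. The median log2 change of the 66 genes was -0.14, beside 0.06 over all genes. Cacna1b, the N-type calcium channel (named after its values were seen), had 0.629 and 0.183 CPM on Day 4 against 9.3 and 0.0571 CPM on Day 2, with 3 reads in the pilot Day 2 sum, so that the experiments went opposite ways in reads, and its change by cells was -2.87 ± 0.88 (SE; adjusted p = 0.0307) in edgeR. Kcnk1 changed by -1.79 ± 0.50 (SE; adjusted p = 0.0141) by cells in edgeR. Kcnh2 had 3.1% and 0% of thinned cells on Day 4 against 0.563% and 1.35% on Day 2 and did not pass.

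Day 6 was then set against Day 4. On summed reads 0 of 66 channel genes passed in edgeR, where 0.0746% of all genes did, with 12 higher and 3 lower at an unadjusted p under 0.05. By cells, 9 of 28 rose and 2 fell, where 6.63% of all genes rose and 5.4% fell. Among these were Kcnh2, Cacna1g, Cacna2d1, Cacna1b, Scn3a, Scn3b, Hcn3 and Kcnd3 on the higher side, and Kcnip3 and Kcnk1 on the lower one. Kcnd3 had no read on Day 4, and its call is given as a description. DESeq2 called 13 higher and 2 lower (6.52% of all genes in either direction), 6 of the higher ones in common with the count of cells. The median log2 change of the 66 genes was 3.27 in summed reads, beside 0.06 for all genes. Kcnh2 changed by 2.44 ± 0.33 (SE; adjusted p = 1.53e-07) by cells in edgeR. Hcn3, a pacemaker channel gene, had 3.13 and 1.56 CPM on Day 6 against 0.0629 and 0 CPM on Day 4, a change by cells of 3.77 ± 1.20 (SE; adjusted p = 0.0283) in edgeR. Kcnip3 had 1.1 and 3.1 CPM on Day 6 against 6.39 and 3.55 CPM on Day 4, and fell by cells with a log2 change of -2.62 ± 0.82 (SE; adjusted p = 0.0258) in edgeR. Whether the changes after Day 4 differed from those before it was not tested, and both comparisons share the Day 4 sums.

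Over all 5 days, the slope per day was tested. In edgeR on summed reads 0 of 66 channel genes passed, where 1.4% of all genes did, with 11 higher and 2 lower at an unadjusted p under 0.05. By cells, 11 of 28 rose (39.3%) and 3 fell (10.7%), where 15.8% of all genes rose and 17.3% fell. DESeq2 called 14 higher and 4 lower (17.4% of all genes in either direction). Kcnh2 rose with a log2 slope per day of 0.88 ± 0.07 (SE; adjusted p = 1.51e-14) and Cacna2d1 with 0.83 ± 0.11 (SE; adjusted p = 1.92e-08), both by cells in edgeR. Kcnk1 fell with a slope of -1.23 ± 0.14 (SE; adjusted p = 7.25e-10) and Kcnk5 with -0.62 ± 0.13 (SE; adjusted p = 9.89e-05). Kcnip3 fell as well, with -0.52 ± 0.17 (SE; adjusted p = 0.016) by cells in edgeR.

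The Day 6 eGFP++ cells were set against Day 6 cells without an eGFP label, to ask what sets the brightest cells apart. Having no eGFP label does not mean that a cell lacked eGFP, and bright cells may be among the Day 6 cells. The summed channel level of eGFP++ cells was higher in both experiments, as given above, yet no single gene passed in edgeR. On summed reads 0 of 66 channel genes passed in edgeR, where 0.0311% of all genes did, and 0 were higher and 3 lower at an unadjusted p under 0.05. By cells, 0 of 28 passed in either direction, where 0.174% of all genes rose and 1.14% fell. DESeq2 called 0 higher and 4 lower (Kcna7, Kcnj14, Kcnk5 and Kcnt2, named for being called), where 3.88% of all genes passed in either direction. Kcnk5 and Kcnt2 were lower in both experiments. Kcna7 and Kcnj14 had no read in main Day 6 or main eGFP++ cells, so their calls rest on the pilot sums. After thinning, each had reads in 1 pilot Day 6 cell. The pilot Day 6 sum of Kcna7 equalled the highest number of its reads in a single cell. The median log2 change of channel genes was -1.35 in summed reads, beside -0.52 for all genes, and 0.58 by cells, with 21 of 28 positive, so that the sign of the median depended on the measure. Another scaling, RLE, set the median of all genes at -0.40.

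The nearest to a call by cells was Cacna2d1, with 22.7% and 38.5% of thinned eGFP++ cells against 11.9% and 12.7% of Day 6 cells and a log2 change of 1.19 ± 0.35 (SE; adjusted p = 0.0729) in edgeR. Cacna1g was found in 23.8% and 10.3% of thinned eGFP++ cells against 9.6% and 15.5% of Day 6 cells, higher among main cells and lower among pilot cells. Kcnh2 did the same, with 25.2% and 17.9% against 19.8% and 23.9%. Kcnk5 had 0.602 and 0 CPM in eGFP++ cells against 5.07 and 5.7 CPM in Day 6 cells, with a log2 change of -4.13 ± 1.24 (SE; adjusted p = 0.527) in edgeR on summed reads. It was called by DESeq2, and in edgeR, of the fits that left out 1 sum, only without the main eGFP++ sum (adjusted p = 0.0110), where eGFP++ was 1 sum with no Kcnk5 read, assumed to vary like the other groups. The pilot eGFP++ sums rest on 39 cells. Cacnb3 was found in 27.3% and 17.9% of thinned eGFP++ cells against 13.3% and 18.3%, and Scn3b in 7.09% and 7.69% against 2.82% and 2.82%. The KCNH class summed to 53.1 and 89.6 CPM against 39.5 and 42.9 CPM, and the 4 calcium beta genes to 121.3 and 377.4 CPM against 54.6 and 56.3 CPM. Of the pilot eGFP++ value, 302.3 CPM was Cacnb1, with 98.3% of its reads from 1 cell.

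The 83 eGFP+ cells come from 1 plate and have no replicate, so their values stand as a description. Channel genes summed to 316.1 CPM there, against 439.9 CPM in main Day 6 cells. Their neuron markers summed to 809 CPM and their neural progenitor markers to 569 CPM. Thinned cells held a median of 985 genes of any kind, the fewest of the main experiment. Cacna2d3, another alpha2delta gene named after its values were seen, had its highest level there, 68.5 CPM, against 13.2 and 0.888 CPM in main and pilot Day 6 cells. Hcn2 and Hcn3 had no read in eGFP+ cells.

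Day 6 cells without an eGFP label held both neuron and progenitor markers, and they were split by reads of Stmn2, a neuronal gene that is no channel gene, as a description with no test. The split used cells thinned to 10000 reads, so a cell counted as lacking Stmn2 may hold reads of it at full depth. In the pilot experiment 28 thinned cells had and 43 lacked Stmn2 reads. Before thinning, these cells had medians of 670327 and 926316 reads of genes. Cells with Stmn2 held a mean of 2.02 channel genes after thinning and cells without it 0.895 among main cells, and 2.93 against 1 among pilot cells. Thinned cells with Stmn2 also held more genes of any kind in the main experiment (a median of 1609.5 against 1380), while in the pilot one the medians were 1706 and 1689. Of the channel genes, 44 had a higher share of cells with a read among Stmn2 cells in the main experiment, 27 in the pilot one and 23 in both, and 1 had a lower share in both. The same count over all genes was not made, and many channel genes had reads in few or no cells. These counts therefore do not show a trait of channel genes.

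After thinning, Kcnd3 had reads in 6.71% of main and 21.4% of pilot cells with Stmn2, and in no main or pilot cell without a Stmn2 read. Rare reads are lost in thinning, so Kcnd3 was not shown to be absent there. Cacna1g was found in 16.5% and 32.1% of cells with Stmn2 against 3.68% and 4.65% of cells without it, and Cacna2d1 in 19.5% and 25% against 5.26% and 4.65%. Kcnh2 had shares of 23.8% and 28.6% against 16.3% and 20.9%, and Cacnb3 went opposite ways in the experiments, with 16.5% and 14.3% against 10.5% and 20.9%. At this depth, reads of Kcnd3 and Cacna1g thus lay mostly in cells with Stmn2 reads, while Kcnh2 and Cacnb3 were found widely in Day 6 cells with and without them. Some cells without a Stmn2 read had reads of other neuronal genes, so the split does not fully separate neurons from other cells.

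Partners of the channels were read from a list of 22 genes: sodium channel binding Fgf genes, anchors of the axon initial segment, the sodium leak channel, the sodium-potassium pump, chloride transporters and Rest, the repressor of neuronal genes. On summed reads 0 of the 20 tested passed for Day 6 against Day 2 in edgeR, and Nfasc, an anchor of nodes and initial segments, rose in the trend over days (1.24 ± 0.24 per day on the log2 scale, SE; adjusted p = 0.0345). By cells with a read, 5 of 13 rose (Ank2, Ank3, Fgf13, Nfasc and Slc12a5, the chloride exporter KCC2) and 4 fell (Atp1b1, Rest, Slc12a2 and Sptbn4), where 14.9% of all genes rose and 15.8% fell. Rest had 0.136 and 0.0611 CPM in eGFP++ cells, 0.696 and 4.44 CPM on Day 6 and 18.6 and 21.7 CPM on Day 2. Of 28 genes of ligand-gated glutamate, GABA and glycine receptors, Gria2, an AMPA receptor subunit, rose in the trend on summed reads (3.13 ± 0.62 per day, SE; adjusted p = 0.0497 in edgeR), and by cells 3 of 5 rose for Day 6 against Day 2, Gria2, Grik3 and Grik5, beside the same 14.9% of all genes. The median log2 change of Day 6 against Day 2 was 1.12 for the 20 partners and 5.53 for the 23 receptors tested, beside 2.46 for the channel genes and 0.17 for all genes.

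The channel genes are spread over the genome, and 25 of the 66 share exon sequence with another gene of the GENCODE M21 annotation, 24 of them with one on the opposite strand. Whether strand was used in counting was not given in the sources used here, so reads of these pairs cannot be told apart. Among genes described above, this holds for Kcnk1 (with Gm45875), Kcnn1 (with A230052G05Rik), Kcnd3 (with Kcnd3os), Cacnb1 (with Gm11629), Hcn3 (with Pklr), Cacna1a (with Gm16183), Cacna1h (with Tpsg1), Cacna2d2 (with Gm17141), Kcnk2 (with A430027H14Rik), Kcnk3 (with Gm9899), Kcnt2 (with 4930590L20Rik), Kcnab3 (with Kcnab3os), Kcnn2 and Kcnmb4. Kcnh2, Cacna1g, Cacna2d1, Cacnb3 and Kcnk5 share exon sequence with no other gene there.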

How the data were processed

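Read counts per gene and cell were used as the authors deposited them: 35 tables of whole numbers, 1 per plate, with no unique molecular identifiers, so amplification duplicates are part of them. Per the submitters' processing notes, TopHat2 2.1.1, HTSeq 0.6.1 and mm10 were used. Of all reads 34.9% stood in lines that sum up the counting step and 6.16% in spike-in sequences, and both were left out, as were 27 names that a spreadsheet had turned into dates. Columns carry no names, and each was taken as a cell of its plate's group. The 40 columns of 1 further table were not used.

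Cells with at least 500 detected genes were kept (2448 of 2744). Reads were summed by group and experiment, and the 12 sums of Days 2 to 6 and eGFP++ were fitted with edgeR 4.0.16 in R 4.3.3 (filterByExpr, 16080 genes; TMM; group plus experiment; 5 residual degrees of freedom; prior count 0.125; two-sided, Benjamini-Hochberg, threshold 0.05). CPM are counts scaled to 1000000 reads of genes and are not per length, so levels were compared between groups and not between genes. The fit of cells with a read used the same model on the number of cells with at least 1 read, without thinning. The scaling there was to the total of these numbers over all genes, with TMM. DESeq2 1.42.0 was an alternative. Log2 changes against sums of 0 depend on the prior count. The experiment was a term as each had its own plates and culture, and the labels' series text calls them biological replicates. Main minus pilot differences of 2 groups correlated at 0.0592 to 0.281 (median 0.121 over 15 pairs of groups). With simulated sums for Day 6 against Day 2 of 16080 genes, calls were made for 0 of 50 genes changed 2-fold, 6 of 50 changed 4-fold, 23 of 50 changed 16-fold and 41 of 50 changed 64-fold, and for 7 of 15880 unchanged ones. The changed genes were drawn from those with a mean above 5 CPM. Of the 66 channel genes, 8 had at least 5 CPM in the main Day 2 sum and 8, not all the same genes, in the pilot one. On Day 6 the numbers were 23 and 16. The rates thus do not cover the many channel genes at lower levels.

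Shares of cells used cells thinned to 10000 reads, with Wilson intervals. Zero sums were set to 3 reads for bounds of a fold; amplified reads are not independent molecules, so bounds and intervals cover counting error only. Named genes are those with an adjusted p under 0.05 in the test on summed reads (0 genes) and, in each subunit class, the 2 with reads in most cells; other genes named were chosen after their values were seen. The values of 1 channel gene and 1 marker gene are not reported here, in the text or the figures. The members, lists and tests were chosen with earlier results of these data known. Promoters came from RefSeq (GRCm38.p6), gene spans and exons from GENCODE M21.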

Additional observations from a re-analysis of the deposited data

How the results depend on the processing

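On summed reads 0 channel genes passed in each of the 5 comparisons, and the fit with no replicate block, in place of the experiment as a block, also gave 0 calls in each. The measure and the tool moved the counts. For Day 6 against Day 2 there were 12 higher and 3 lower calls with DESeq2 and 13 and 2 by cells with a read; for Day 6 against Day 4, 13 and 2 and 9 and 2; for Day 4 against Day 2, 4 and 3 and 0 and 2; for the trend, 14 and 4 and 11 and 3; and for eGFP++ against Day 6, 0 and 4 and 0 and 0. With only the groups compared, 1 gene was called higher for Day 6 against Day 4 and for Day 6 against Day 2 (Kcnd3), and 1 lower for Day 6 against Day 2 and in the trend (Kcnk5). Kcnd3 had no read on Day 2 or Day 4 and entered these fits only through Day 6, so its calls are a description. Leaving out each of the 12 sums in turn gave 0 to 1 calls: Cacna1g higher in Day 6 against Day 2 and in the trend without the main Day 2 sum, and Kcnk5 lower in both without either eGFP++ sum and in eGFP++ against Day 6 without the main eGFP++ sum. The cause was not tested. RLE scaling, no filter, other limits on detected genes, plates left out and sums without the highest cell gave 0 calls in every comparison. Over 36 results for single genes and 788 values under the alternatives, 721 kept their direction and side of the threshold, 67 passed it newly and 0 reversed. As the fit on summed reads called 0 channel genes, no call of a channel gene could be lost. For these genes, the same side of the threshold means not called. With all reads in place of thinned cells, 44 of 78 shares moved by more than their interval. The count of 66 genes was the same with all cells. Depth limits rare genes, since 3 reads in a sum are the floor.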
